A study of Mus musculus with 2 samples.

Results

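The genes described here encode large aggregating proteoglycans, the link proteins that tie them to hyaluronan, and proteins that make, bind or cut hyaluronan. They are the hyalectans *Acan* and *Vcan*, the link proteins *Hapln1* and *Hapln3*, the hyaluronan synthases *Has1*, *Has2* and *Has3*, the hyaluronan receptor *Cd44* and the hyaluronidases *Hyal1* and *Hyal2*. Of these 10 genes, 9 had at least 1 probe set annotated to them alone, out of 18193 genes on the array, with 23 probe sets in all. *Hyal1* had none, as both of its probe sets are also assigned to *Naa80*, and it is given no value here.

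The RNA came from femoral cartilage of *Tric-b*-KO mouse embryos at E17.5, with C57BL/6J and 129Sv given as their strains. One array was hybridized with the growth plate section rich in round chondrocytes, and a second array with the section of columnar and hypertrophic chondrocytes. By the design text, RNA from 3 preparations was mixed for each. Both specimens carry the *Tric-b* knockout, and no wild-type array was analysed here. Every comparison below is therefore between zones of knockout cartilage. With 1 array per zone no difference has a replicate check. As a guide to scatter, the log2 differences of probe sets for the same gene had a pooled SD of 0.34, which holds no variation between animals.

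In cartilage, aggrecan monomers bind along hyaluronan chains, and a link protein locks each bond. The chondroitin sulfate chains of these aggregates draw in water and give the tissue its resistance to compression. Versican has the same hyaluronan-binding end and is typical of loose and early mesenchymal tissues, of joint-forming regions and of perichondrium. Hyaluronan itself is spun out at the cell surface by the HAS enzymes, held there by CD44 and cut by hyaluronidases.

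The zones differed in opposite directions within this group. *Vcan* was 15.6-fold higher in the round zone, whereas *Has2* was 2.54-fold and *Hapln3* 2.38-fold higher in the columnar/hypertrophic zone. *Hapln1* was 1.59-fold higher in the columnar/hypertrophic zone and *Hyal2* 1.67-fold higher in the round zone. *Acan* and *Cd44* differed by 1.15-fold and 1.33-fold. *Has1* and *Has3* lay under the detection floor in both.

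In the mouse genome each of these link protein genes is the direct neighbour of a hyalectan gene. *Acan* and *Hapln3* lie side by side on chromosome 7, and *Vcan* and *Hapln1* on chromosome 13, with 0 protein-coding genes between the members of each pair. The genes of a pair are read toward each other from opposite strands, with their promoters at the far ends. The 250 bases before 1 annotated start of each gene are shown because both genes of the *Vcan* and *Hapln1* pair, although neighbours, differed between the zones in opposite directions. They are RefSeq sequence of GRCm38.p6, written 5′ to 3′ on the gene's own strand, and other starts were not analysed here. Capitals mark matches on either strand to the letters TATAAA of the TATA box, the letters CCAAT of the CCAAT box, the letters GGGCGG of the GC box and the letters ACAAT of a core bound by SOX factors. The letters TGANTCA of the AP-1 site were also searched.
*Vcan* (chr13:89742513-89742762, minus strand): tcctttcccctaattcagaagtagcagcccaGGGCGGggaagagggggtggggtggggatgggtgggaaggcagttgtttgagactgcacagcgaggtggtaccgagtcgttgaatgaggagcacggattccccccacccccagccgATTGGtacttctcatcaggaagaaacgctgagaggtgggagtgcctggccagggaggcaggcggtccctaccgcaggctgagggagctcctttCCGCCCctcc
*Hapln1* (chr13:89540386-89540635, plus strand): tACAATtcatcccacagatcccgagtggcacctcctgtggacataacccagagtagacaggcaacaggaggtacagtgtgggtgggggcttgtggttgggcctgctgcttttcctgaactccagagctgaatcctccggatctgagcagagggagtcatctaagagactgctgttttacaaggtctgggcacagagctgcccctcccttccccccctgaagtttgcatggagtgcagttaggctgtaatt
*Acan* (chr7:79052976-79053225, plus strand): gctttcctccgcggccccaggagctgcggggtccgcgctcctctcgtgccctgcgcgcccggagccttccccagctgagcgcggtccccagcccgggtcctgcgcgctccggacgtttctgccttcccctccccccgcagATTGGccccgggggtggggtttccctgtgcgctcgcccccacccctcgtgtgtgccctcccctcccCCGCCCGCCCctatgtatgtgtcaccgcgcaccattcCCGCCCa
*Hapln3* (chr7:79131019-79131268, minus strand): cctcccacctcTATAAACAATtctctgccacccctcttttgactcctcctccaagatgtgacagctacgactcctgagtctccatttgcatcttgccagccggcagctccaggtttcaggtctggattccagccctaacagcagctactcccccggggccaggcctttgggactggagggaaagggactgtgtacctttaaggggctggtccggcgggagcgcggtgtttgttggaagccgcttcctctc

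The *Acan* window held 1 CCAAT and 3 GC box matches, 2 of which overlap. The *Vcan* window held 1 CCAAT and 2 GC box matches. The windows of both link protein genes held neither of these motifs. *Hapln1* had 1 ACAAT match, and *Hapln3* had 1 TATAAA and 1 ACAAT match that share a letter. AP-1 matches numbered 0 in these 4 windows. Of 32851 promoter windows of the same length, 33.8% held CCAAT, 32.7% the GC box, 27.7% ACAAT, 12.4% TATAAA and 6.75% the AP-1 letters. Such matches describe the letters of these windows and not the binding of any factor.

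Signals were compared when at least 1 array lay above a floor of 65.9, the 40th percentile of all signals. This held for 15 of the 23 probe sets and for 7 of the 9 genes. Each of the 7 genes, represented by its brightest probe set, lay above the floor in both arrays. A difference of 2-fold was used as a size rule, since no test was possible. By this rule 3 of the 15 probe sets, all of *Vcan*, were higher in the round zone, where the share over all compared probe sets was 5.96%. Another 3, those of *Has2* and *Hapln3*, were higher in the columnar/hypertrophic zone, against 3.82% of all. Counted as genes, 1 of 7 was higher in the round zone against 6.25% of all 12761 compared genes, and 2 of 7 in the columnar/hypertrophic zone against 4.28%. The median log2 difference (columnar/hypertrophic minus round) was 0.41 over the 7 genes and -0.04 over all compared genes. With so few genes these shares describe the group and do not set it apart.

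**Figure D1:**
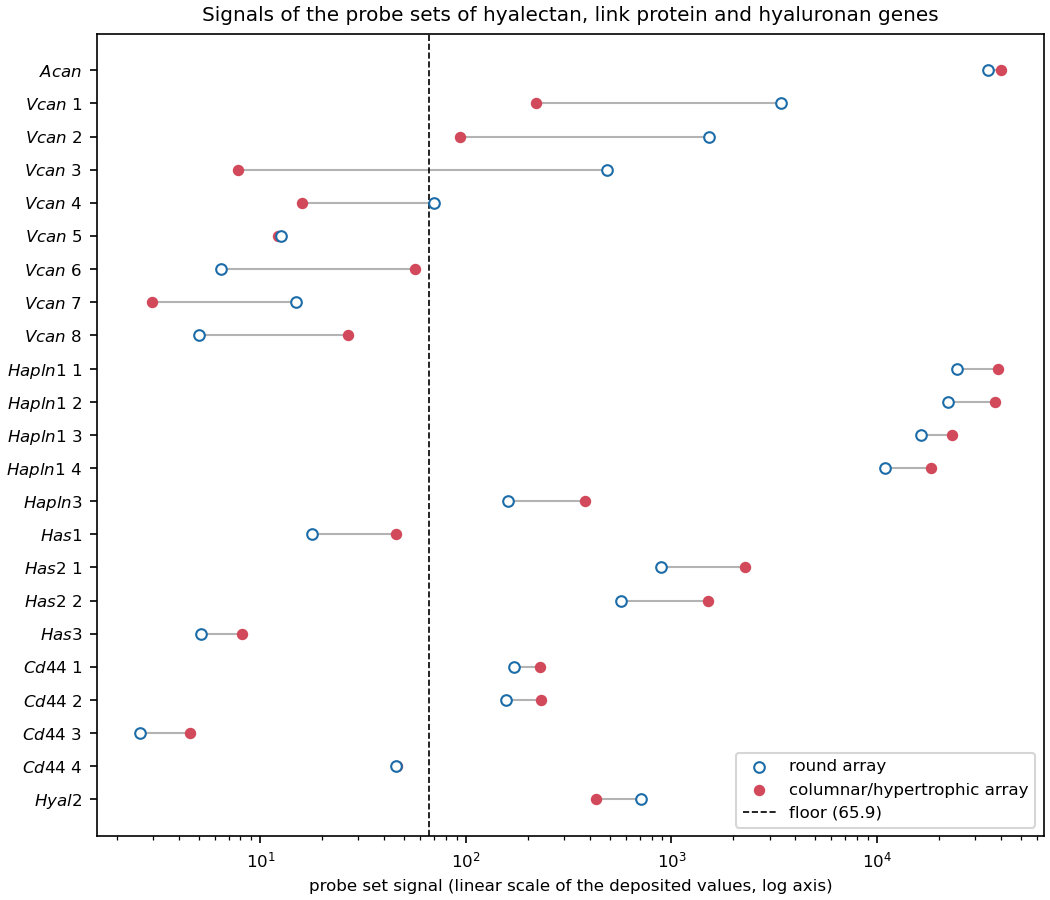
Signals (log axis) of all 23 probe sets in the round zone (open circles) and the columnar/hypertrophic zone (filled circles), 1 array per zone, with the floor of 65.9 as a dashed line. Probe sets of a gene are numbered from the brightest, and those under the floor in both arrays by probe set name. The brightest *Vcan* probe set lies at 3418 for round and 219 for columnar/hypertrophic chondrocytes, and both *Has2* probe sets lie to the right in the columnar/hypertrophic zone.

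The hyalectan genes had unlike values. *Acan*, encoding the core protein of the main cartilage proteoglycan, was measured by 1 probe set, with signals of 34757 in the round zone and 39969 in the columnar/hypertrophic zone. Its log2 difference was 0.20, which is less than the spread between probe sets of a gene. Both values lie in the upper part of the scale. Of 68 probe sets with a signal over 30000 in both arrays, 1 differed by 2-fold. That choice itself limits the difference, as the highest signal of all was 68899. The count therefore does not show how often bright genes differ. Whether the array compresses differences in *Acan* mRNA at such signals was not tested.

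*Vcan* was the gene of the group with the largest difference. Its brightest probe set had signals of 3418 in the round zone and 219 in the columnar/hypertrophic zone, a log2 difference of -3.97. Only 9 of the 12761 compared genes had a lower value. Another probe set gave 1526 and 93.1, a log2 difference of -4.03. A further one had 483 in the round zone and lay under the floor in the columnar/hypertrophic zone at 7.78, so it was at least 7.33-fold higher in the round zone. These 3 probe sets agree in direction and, where both arrays were above the floor, in size. The fourth was barely above the floor in the round zone, at 69.9, and under it in the other, which allows no more than a bound of 1.06-fold. The other 4 of its 8 probe sets were under the floor in both arrays, between 2.96 and 56.4. The mean log2 difference over the 4 compared probe sets, -2.74, holds both of these bounds and is therefore itself a bound. Where these probe sets lie on the versican splice forms is not known here.

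Markers of the perichondrium and fibroblasts moved with *Vcan*. Of 10 such genes 9 were compared, and 7 of these were at least 2-fold higher in the round zone. The summed signal of all 10 was 65634 in the round zone and 11807 in the columnar/hypertrophic zone. Most of it came from *Col3a1* (30420 and 5232) and *Dcn* (25968 and 5083). The largest differences were those of *Col14a1*, a fibril-associated collagen gene (2495 and 104), and *Postn*, encoding periostin (1977 and 186). *Thy1*, the tenth, was under the floor in both arrays. Genes of the round zone and joint moved the same way, with 4 of 5 compared at least 2-fold higher in the round zone. Among them were *Prg4*, encoding lubricin (5260 and 94.1), and *Erg* (793 and 218). In RNA of a whole tissue section, fewer cells of a type and less RNA per cell cannot be told apart, and the part of perichondrial or joint cells in the *Vcan* difference was not tested.

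**Figure D2:**
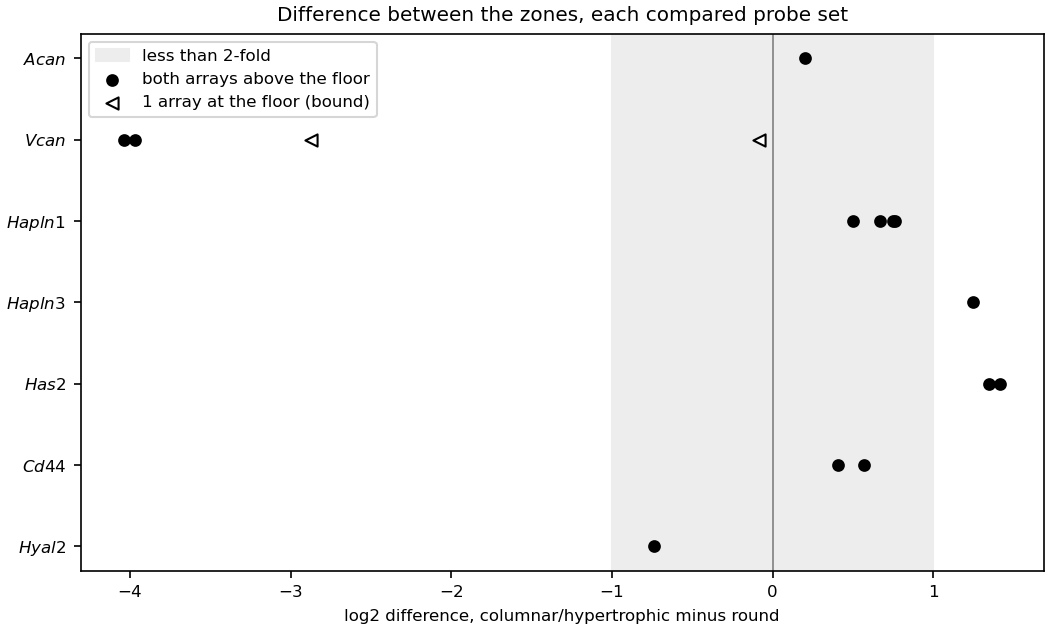
Log2 difference between the arrays (columnar/hypertrophic minus round) of the 15 compared probe sets, with the grey band marking less than 2-fold. Filled circles are probe sets above the floor in both arrays and open triangles are bounds. *Vcan* reaches -4.03, while the probe sets of *Has2* lie at 1.35 and 1.41.

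Both link protein genes were higher in the columnar/hypertrophic zone. *Hapln1*, encoding the cartilage link protein, was bright in both zones. Its 4 probe sets had signals of 24406, 22129, 16397 and 10924 in the round zone and 38853, 37479, 23222 and 18336 in the columnar/hypertrophic zone. The log2 differences lay between 0.50 and 0.76, all on one side and under 2-fold. The log2 difference of *Acan* was 0.20, at signals above those of every *Hapln1* probe set in both arrays. The part of signal height in these values was not tested. Of 143 probe sets with a signal over 20000 in both arrays, 4 had a log2 difference of at least 0.5, and 2 of these were *Hapln1* probe sets. Another 5 were at -0.5 or lower, and 3 of the 143 differed by 2-fold. Choosing probe sets bright in both arrays leaves out those with a large difference, so these counts do not describe all bright probe sets.

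*Hapln3*, a link protein gene of wider tissue distribution, was measured by 1 probe set with signals of 160 for round and 381 for columnar/hypertrophic chondrocytes. Its log2 difference was 1.25, and 350 of the compared genes had a higher value. The round signal was under the floor of the 60th percentile, and with that floor the difference was 0.88 as a bound, which is under 2-fold. Neighbouring genes thus had unlike differences. *Acan* and *Hapln3* had log2 differences of 0.20 and 1.25, whereas *Vcan* and *Hapln1* had -3.97 and 0.67.

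Of the hyaluronan synthase genes, *Has2* alone was above the floor. HAS2 is the main enzyme of hyaluronan synthesis in the developing skeleton. The signals of *Has2* were 892 in the round zone and 2269 in the columnar/hypertrophic zone on one probe set, and 567 and 1511 on the other. The log2 differences of 1.35 and 1.41 were nearly equal, and only 295 compared genes had a value above that of the brighter probe set. Neither reached 3-fold. *Has1* had signals of 17.9 and 45.8, and *Has3* of 5.16 and 8.14. As both were under the floor in each array, these values are not a measured order.

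Markers of the columnar and hypertrophic zone were higher in the same array. Of 9 measured genes 8 were compared, and all 8 were at least 2-fold higher on the columnar/hypertrophic side. Their summed signal was 3736 in the round zone and 72842 in the other. *Col10a1*, encoding type X collagen, had 25421 there and was under the floor in the round zone, at 55.2. *Panx3*, a channel gene of maturing chondrocytes, had 17698 there and 58.6, under the floor, in the round zone. Of the 8 genes common to chondrocytes, all compared, none reached 2-fold. The 4 brightest, *Col2a1*, *Col9a1*, *Col11a1* and *Matn1*, had signals over 30000 in both arrays, where compression of differences was not tested, as for *Acan*. The extremes lay among the dimmer ones, *Matn3*, a matrilin gene, at 0.48 and *Sox5*, a cartilage transcription factor gene, at -0.29. Whether columnar or hypertrophic cells carry the additional *Has2* and *Hapln3* transcripts was not tested.

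The receptor gene *Cd44* had weak signals in both zones. Its brightest probe set gave 172 for round and 228 for columnar/hypertrophic chondrocytes, and the second 157 and 232. The log2 differences were 0.41 and 0.57, both under 2-fold. The other 2 of its 4 probe sets were under the floor in both arrays. *Cd44* is also a gene of blood and bone-resorbing cells. Of 10 myeloid and osteoclast markers 6 were under the floor in both arrays, among them *Ptprc* (4.83 and 10.9). The summed signal of all 10 was 1730 in the round zone and 1895 in the other, most of it from *Ctsk*. The 4 compared had differences under 2-fold. The brightest was *Ctsk*, encoding the protease cathepsin K, with 1231 and 1385, and the others included *Csf1r*, the colony-stimulating factor receptor gene, at 91.0 and 161 and *Cd68* at 102 and, under the floor, 63.4.

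*Hyal2*, encoding a hyaluronidase anchored at the cell surface, had signals of 715 in the round zone and 428 in the columnar/hypertrophic zone. Its log2 difference of -0.74 was under 2-fold and rested on 1 probe set. It lay between -0.74 and -0.63 over all 9 settings, of which only the scalings could change it. Thus, apart from *Vcan*, *Hyal2* was the only compared gene of the group with a higher signal in the round zone.

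The rest of the pathway was described with a list of 52 further genes, of which 50 were measured and 38 compared. At least 2-fold higher were 7 in the round zone and 2 in the columnar/hypertrophic zone. The shares over all compared genes were 6.25% and 4.28%, respectively. The median log2 difference was -0.07, close to that of all genes, and it turned to 0.02 under median centring and 0.12 with the floor at the 60th percentile.

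Of the genes of matrix proteins that bind hyalectans, 4 were compared. All 4 were higher in the round zone on the brightest probe set, as were 6793 of all 12761 compared genes. Of the 4 genes, 2 passed 2-fold, against 6.25% of all. *Fbn2*, encoding the microfibril protein fibrillin-2, had signals of 2848 for round and 270 for columnar/hypertrophic chondrocytes. *Tnc*, encoding tenascin-C, had 2656 and 259. The probe sets of *Fbn2* gave log2 differences from -3.40 to -3.12 and those of *Tnc* from -3.36 to -2.41. *Fbln1* and *Fbln2*, the fibulin genes, were at -0.42 and -0.34, although another probe set of *Fbln1* was at 0.31. The *Fbln2* value was within the pooled SD of 0.34. The fibulin genes thus did not reach 2-fold, whereas *Fbn2* and *Tnc* differed in the direction of *Vcan*, by 10.5-fold and 10.3-fold. The perichondrial and joint markers given above moved with them too, and their part in these differences was not tested.

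The other hyalectan genes are known from the nervous system. *Ncan*, encoding neurocan, had a brightest probe set of 408 for round and 111 for columnar/hypertrophic chondrocytes, but its log2 differences ran from -1.88 to -0.22 over 3 probe sets. *Bcan*, encoding brevican, had 121 in the round zone and lay under the floor in the other. The link protein genes paired with them were weak. *Hapln4* had 95.1 and 109, and *Hapln2* was under the floor in both arrays.

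Among other receptors and hyaluronan-binding proteins, 9 of 15 genes were compared. *Itih5*, encoding a heavy chain of the inter-alpha-trypsin inhibitor family, had 1156 for round and 112 for columnar/hypertrophic chondrocytes, with log2 differences between -3.37 and -2.85 over 3 probe sets. *Itih2*, of the same family, had 173 in the round zone and was under the floor in the other, a difference of at least 2.62-fold. *Layn*, encoding the hyaluronan receptor layilin, had 173 and, just above the floor, 67.0, but its second probe set had a log2 difference of -0.74. *Ptx3*, encoding a pentraxin of hyaluronan-rich matrix, had 176 and 445, although its second probe set had a log2 difference of only 0.07. *Hmmr*, a hyaluronan-binding mitotic protein gene, had 1172 and 940.

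Of 9 genes that supply the sugar precursors, 9 had a higher signal in the columnar/hypertrophic zone on the brightest probe set, as had 5968 of all 12761 compared genes, and none reached 2-fold. Their log2 differences lay between 0.02 and 0.96, with a median of 0.37. Those of *Gfpt1*, *Slc35d2*, *Uap1* and *Gnpnat1* were within the pooled SD of 0.34, and *Gfpt1*, *Uap1* and *Gnpnat1* also had probe sets on the other side, down to -0.40, -0.14 and -0.09. *Ugdh*, encoding the enzyme that makes UDP-glucuronic acid for both hyaluronan and chondroitin sulfate, had 11243 for round and 17302 for columnar/hypertrophic chondrocytes. *Ugp2*, which makes UDP-glucose, had 4297 and 8378. *Slc35d1*, a nucleotide sugar transporter gene, had 2493 and 4852, but its second probe set had a log2 difference of only 0.25. *Gfpt2*, of the hexosamine pathway, had 1888 and 3645. *Gfpt1*, encoding the first enzyme of that pathway, had 9492 and 9631, and its probe sets reached 0.97. After quantile normalization or lowess centring 8 of the 9 were on that side, and under median centring 3 of the 9 passed 2-fold.

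**Figure D3:**
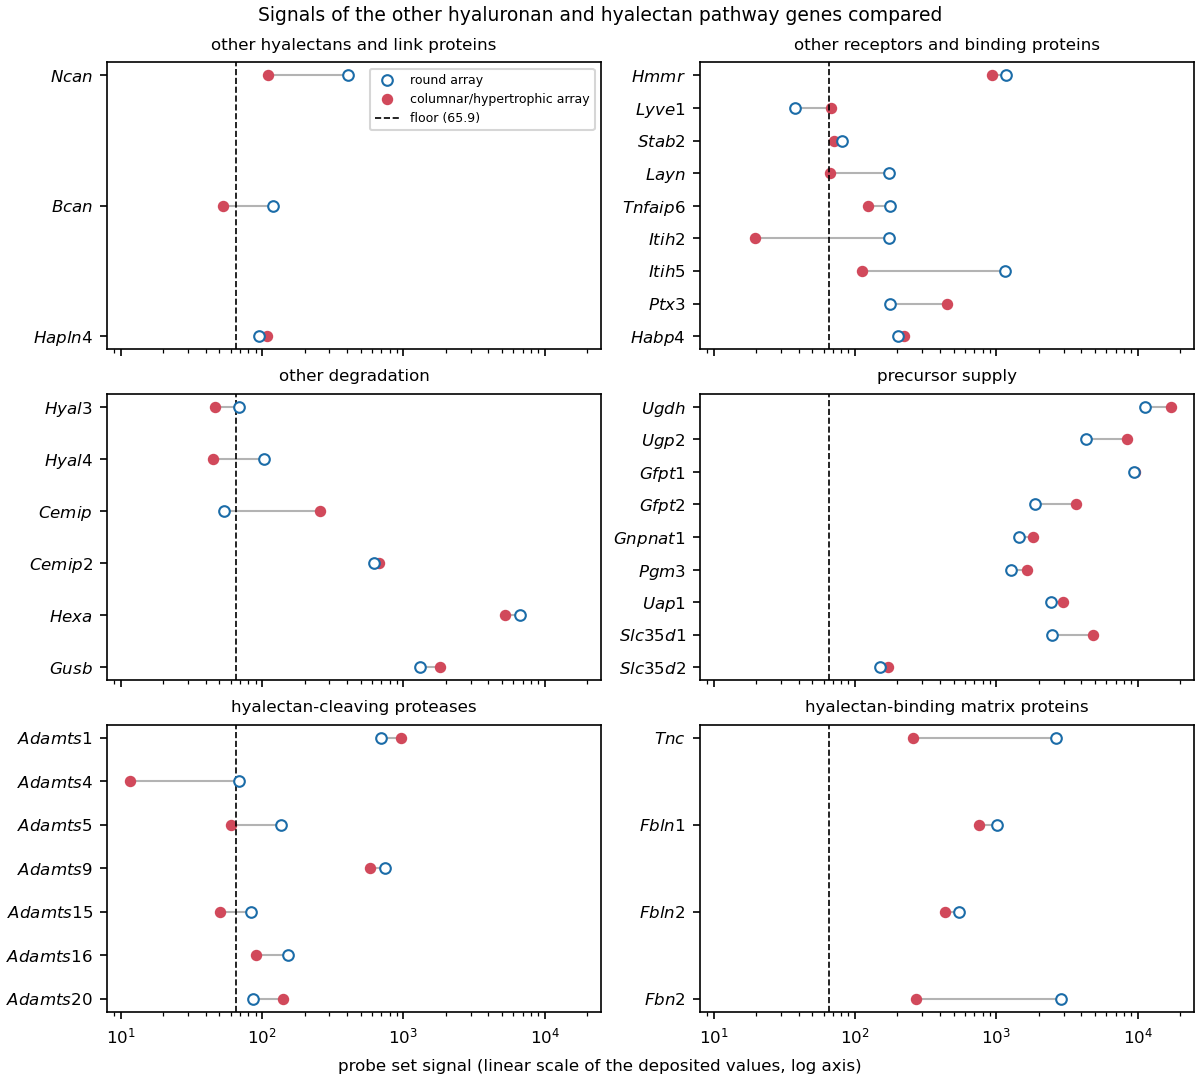
Signals (log axis) of the 38 compared pathway genes outside the described group, in the round (open circles) and the columnar/hypertrophic zone (filled circles), 1 array per zone, with the floor dashed. *Fbn2*, *Tnc* and *Itih5* lie far to the left in the columnar/hypertrophic zone, and the 9 precursor genes lie at or to the right of their round signals.

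Among the other genes of hyaluronan breakdown, 6 of 8 measured were compared and 1 passed 2-fold. *Cemip*, encoding a hyaluronan-degrading protein, had 256 in the columnar/hypertrophic zone and was under the floor in the round zone at 54.3. That was at least 3.88-fold higher there, but a second compared probe set had a log2 difference of only 0.15. *Cemip2*, of the same family, had 618 and 670. The lysosomal genes *Hexa* and *Gusb* had log2 differences of -0.35 and 0.48. *Hyal4* had 102 in the round zone and was under the floor in the other, and *Hyal3* was barely above the floor in the round zone alone.

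Proteases that cut aggrecan or versican had mostly weak signals, and 3 of the 7 compared ADAMTS genes gave only a bound. Of the 7 genes 1 was at least 2-fold higher in the round zone, against 6.25% of all compared genes. It was *Adamts5*, encoding a major aggrecanase, with 135 in the round zone and 60.7, under the floor, in the other. That bound was 2.05-fold, and the gene's second compared probe set had a bound of -0.17 on the log2 scale. *Adamts1* and *Adamts9*, the brightest of the list, were at 0.48 and -0.35, and the 3 probe sets of *Adamts9* ran from -0.81 to 0.32. The number past 2-fold was 0 under median centring, quantile normalization, lowess centring, the mean over probe sets and the floor at the 60th percentile, and 2 with the floor at the 20th percentile or none. *Adamts4*, another aggrecanase gene, was barely above the floor in the round zone, at 69.2, and under it in the other, at 11.6.

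**Figure D4:**
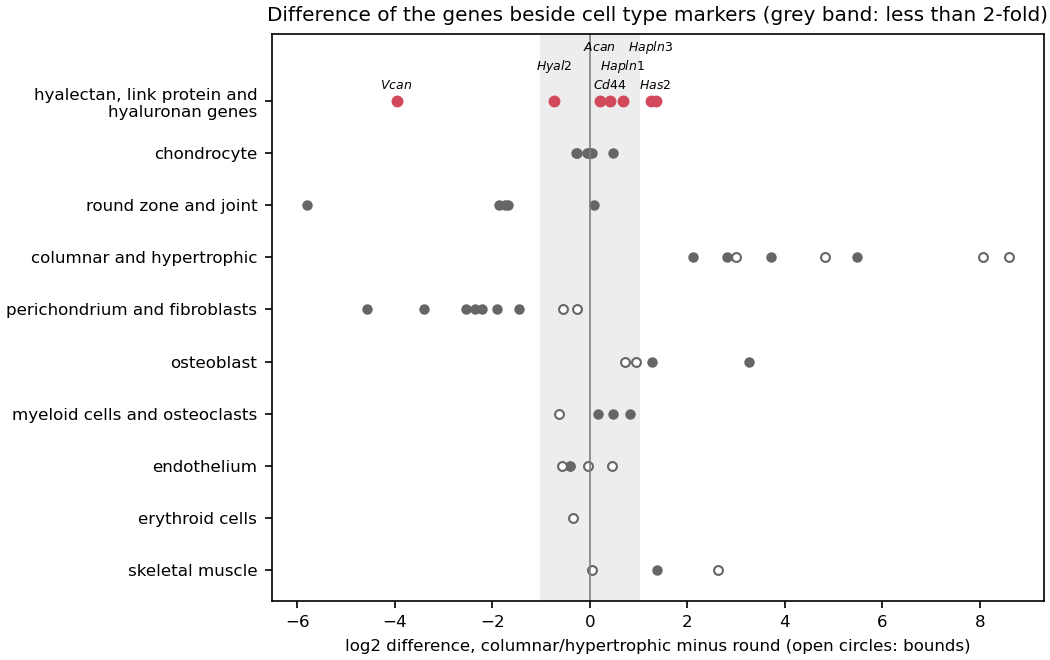
Log2 difference (columnar/hypertrophic minus round) of the 7 compared genes beside those of cell type markers, each point a gene and open circles bounds. *Vcan*, at -3.97, lies in the range of the perichondrium and fibroblast markers, which reach -4.58, and *Has2*, at 1.35, lies under all 8 compared columnar and hypertrophic markers, the lowest of which is at 2.11.

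Markers of other cells that a section could hold were mostly weak. The 4 compared osteoblast genes were all higher in the columnar/hypertrophic zone, and 2 passed 2-fold, *Sp7* (141 and 1342) and *Ifitm5* (119 and 290). The others, *Dmp1* and *Phex*, gave only bounds, with the round array under the floor. Which cells carry these transcripts was not tested. Of the 5 compared endothelial markers none passed 2-fold, with *Pecam1* at 97.9 in the round zone and *Cdh5* at 90.0 in the other as the largest, each under the floor in the opposite array. Of 5 skeletal muscle markers 3 were compared and 2 passed 2-fold, both higher in the columnar/hypertrophic zone. These, *Tnnt3* and *Acta1*, were at 409 and 291 there and at 26.3, under the floor, and 112 in the round zone. *Ckm* gave a bound of 0.05 on the log2 scale, and *Myh3* and *Myog* were under the floor in both arrays. Of the erythroid markers *Alas2* alone was compared, at 83.8 in the round zone and under the floor in the other. *Tmem38b*, which encodes TRIC-B, had signals from 69.4 to 323 in the round zone and from 43.1 to 304 in the columnar/hypertrophic zone over its 4 probe sets. The place of these probes relative to the deleted part is not known here, so they do not check the genotype.

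The direction of each of the 7 compared genes was the same under all 9 settings of scaling, floor and probe set choice, the reported one included. All settings reuse the same 2 arrays, and many could not change a gene's value. For *Acan* and *Hyal2*, each with 1 probe set well above every floor, only the scalings gave another value. The log2 difference of *Acan* lay between 0.01 and 0.29, and that of *Hapln1* between 0.49 and 0.76. *Cd44* lay between 0.17 and 0.62. *Vcan* was past 2-fold in all 9, *Has2* in all 9 and *Hapln3* in 8.

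**Figure D5:**
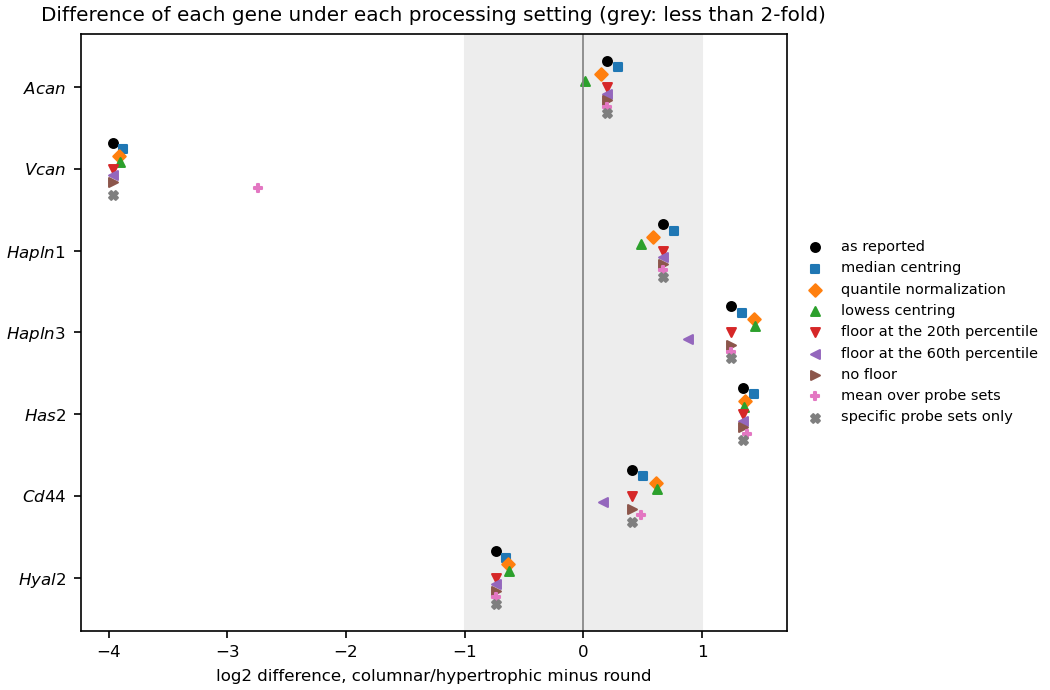
Log2 difference (columnar/hypertrophic minus round) of each compared gene under each processing setting, with the grey band marking less than 2-fold. *Vcan* lies between -3.97 and -2.74, the latter a mean that holds bounds, and *Has2* between 1.35 and 1.44. *Has1* and *Has3*, not compared as reported, are not shown.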

How the data were processed

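Total RNA of *Tric-b*-knockout femoral cartilage was hybridized to 2 Affymetrix mouse genome arrays, 1 for each zone. The authors deposited linear probe set intensities. MAS5, with no version, is named by the submitters' processing notes, while the methods refer to robust multiarray analysis, whose values are logarithmic. The deposited values reach 68899 and were used as they are. Their means trimmed by 2% at each end were 497 (round) and 496 (columnar/hypertrophic).

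Of 45037 probe sets, the platform annotation gave 34945 to 1 gene, 932 to several and 9160 to none. For lack of detection calls the 40th percentile of all signals, 65.9, served as a floor. A probe set above it in at least 1 array was compared, after any lower value was raised to the floor, which then gives a bound. Differences are log2 signals, columnar/hypertrophic minus round. Each gene is represented by its brightest probe set (mean log2 signal). As each zone had 1 array, nothing was tested, and 2-fold was used as a size rule. The number of arrays limits the precision. Older symbols were matched through RefSeq synonyms.

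The genes described, the pathway and marker lists and the rules were chosen with earlier results of these data known. Named were all 10 genes, the pathway genes past 2-fold, up to 2 of the brightest genes of each pathway list, and up to 2 markers of each cell type list with the largest difference. Further genes were picked as examples once their values were known. With 2 arrays no likeness between gene patterns was measured.

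Promoter windows came from a RefSeq table of GRCm38.p6, and gene order from a RefSeq gene table. Alternatives were other scalings, floors, probe set rules and a 3-fold rule. The difference and scaling steps were tested on simulated arrays, with changes larger than 2-fold placed in bright probe sets only. That does not test the bounds, the choice of probe set or differences near 2-fold. The tools were matplotlib 3.10.9, pandas 2.3.3, numpy 2.4.6 and statsmodels 0.14.6 under Python 3.11.15.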

Additional observations from a re-analysis of the deposited data

How the results depend on the processing

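No paired analysis was possible because a single array stood for each zone. Each value was compared with the one reported, with the pooled SD of 0.34 between probe sets of a gene as the tolerance for log2 differences and 1.5 times for counts. Of 120 such comparisons, 105 stayed within it, 15 moved, and no difference past 2-fold changed its direction. The 105 hold values that a setting could not change, such as those of *Acan* and *Hyal2* under other floors. Looser and stricter rules admit more and fewer probe sets by construction, and for the other moves the cause was not tested. The log2 difference of *Vcan* was -2.74 as a mean over its compared probe sets, which is a bound because values raised to the floor enter it, and that of *Hapln3* was 0.88 with the floor at the 60th percentile. *Has1*, not compared in the report, had 1.02 with the 20th percentile as floor and 1.36 with no floor, and *Has3* had 0.66 with no floor. With no floor, 5 probe sets of the described genes passed 2-fold in the round zone and 6 in the columnar/hypertrophic zone, against 3 and 3 as reported. The columnar/hypertrophic count was 5 with the 20th percentile as floor, and 0 for probe sets and 0 for genes by the 3-fold rule. With the floor at the 60th percentile 1 of the described genes, *Has2*, was at least 2-fold higher on the columnar/hypertrophic side. Of the other pathway genes, 11, 3 and 11 passed 2-fold in the round zone with lower, higher and no floor, respectively, against 7 as reported. In the columnar/hypertrophic zone 2 as reported became 5 under median centring, 1 with the floor at the 60th percentile, 4 with no floor and 1 with the mean over probe sets. Signals at or under the floor, 40% of all, limit what can be said of *Has1*, *Has3* and the weaker *Vcan* and *Cd44* probe sets.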
